A study of Mus musculus with 6 samples.

Results

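Calcium channel and TRP channel genes were chosen by symbol: every RefSeq protein-coding gene of mm10 whose symbol begins with Cacna, Cacnb or Cacng, or with Trpc, Trpm or Trpv followed by a digit. The rule took 49 of 21887 genes, of which 26 are calcium channel subunit genes and 23 carry a Trp symbol. Of the latter, Trpc4ap encodes a protein that associates with a TRP channel and Trpc5os is a gene within the span of Trpc5, so neither is known as a channel itself. Open chromatin had been mapped in mouse pancreatic β-cells by ATAC-seq, which marks DNA that the transposase Tn5 can reach, and the data are 1 list of peaks for each of 3 control and 3 Chd4 knockout libraries. Both groups came from tamoxifen-treated mice, called control and Chd4Db in the design text and Control and Chd4KO in the genotype label. Their islets were dispersed and Tomato-positive β-cells were sorted, 27000 to 80000 per collection, which yielded 14000 to 45000 nuclei. No source used here gives the promoter that drives the recombinase or the Tomato label, or the sex and the age of the mice. Nor is it stated that replicate libraries stem from different mice, so p-values reflect only how much these samples vary, and that variation may be technical.

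Voltage-gated calcium channels open on depolarization and are built from a pore-forming subunit (Cacna1 genes) and auxiliary subunits (Cacna2d and Cacnb genes, with Cacng subunits in muscle). In the β-cell, glucose metabolism closes potassium channels, the membrane depolarizes, and calcium entering through the pores, mainly of the L type in the mouse, triggers exocytosis of insulin. TRP channels are cation channels of several families, canonical (Trpc), melastatin (Trpm) and vanilloid (Trpv). Some, such as Trpm5 and Trpm4, which open when calcium rises in the cell, can add a depolarizing current. Chd4 is the helicase of the NuRD chromatin remodeling complex.

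The measurement for a gene was its covered length, that is, how many bases lay under peaks within its territory, the gene span with 10 kb added at both ends. Peaks of the 6 libraries that overlapped by at least 1 bp were merged into regions. A region is termed gained when all 3 knockout lists and no control list held it, lost in the reverse case, and shared when all 6 lists held it. Control libraries held 100109 to 110693 peaks over 58.0 to 63.8 Mb and knockout libraries 119088 to 124125 peaks over 65.8 to 69.1 Mb. Covered length was therefore scaled to the same total in every library. Unscaled values are added for some of the genes whose call or sign changes without scaling. Lengths in bp of single regions are unscaled, while their log2 fold changes are scaled unless stated otherwise. Read depth is unknown throughout, and the number and width of called peaks depend on it. The cells were measured in bulk, so a region open in fewer cells and a region less open in each cell cannot be told apart. All 8 β-cell markers examined had covered bases in both groups (mean of 2162 bp at the lowest, 6262 bp at the highest). So did 16 of 17 markers of other islet, acinar, duct, endothelial and blood cells, the exception being acinar Cpa1 at 0. The summed length of the 4 acinar markers was 1546 to 1632 bp in control and 2885 to 3073 bp in knockout libraries, that of the 4 α-cell markers 6611 to 7065 and 4704 to 5377 bp, and that of the 2 δ-cell markers 3206 to 3732 and 2320 to 2399 bp. That of the 2 endothelial markers was 4717 to 4814 bp in control and 4947 to 6103 bp in knockout libraries. The 8 β-cell markers summed to 31539 to 34169 bp in control and 26370 to 27557 bp in knockout libraries, without overlap, while unscaled sums overlapped (29294 to 31581 and 27235 to 29630 bp). Groups overlapped for duct, γ-cell and leukocyte markers, but single markers of a list differed. Mean length in control and knockout was 2588 and 1902 bp for leukocyte Spi1, and 1134 and 1463 bp for Ptprc. It was 3945 and 4692 bp for endothelial Pecam1, and 808 and 793 bp for Cdh5. It was 501 and 1386 bp for acinar Ctrb1, 777 and 1307 bp for Cela2a, and 316 and 281 bp for Ptf1a. The part of these cell types in the results below was not tested. Loss of Chd4 itself cannot be read from lists of peaks and was not checked.

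At the start sites of 2 channel genes a peak was called in every control library and in no knockout library. Trpm6, which encodes a magnesium-permeable channel fused to a kinase, lost a region at chr19:18749429-18750257, and Cacna1i, which encodes a low-voltage-activated T-type pore, lost one at chr15:80287095-80287348. The bases before these start sites are shown with those of Trpm5, whose start-site region was called in 5 of 6 libraries, and of Cacna1d, an L-type pore gene of the β-cell whose inner start site was open in all 6. Each is the 250 bases before a start site of the RefSeq annotation (GRCm38.p6, the assembly that mm10 names), on the strand of the gene, and capitals mark bases under the region called there. The Trpm6 window is chr19:18749480-18749729 on the plus strand, the Cacna1i window chr15:80286988-80287237 on the plus strand, the Trpm5 window chr7:143094643-143094892 on the minus strand and the Cacna1d window chr14:30353487-30353736 on the minus strand.
Trpm6: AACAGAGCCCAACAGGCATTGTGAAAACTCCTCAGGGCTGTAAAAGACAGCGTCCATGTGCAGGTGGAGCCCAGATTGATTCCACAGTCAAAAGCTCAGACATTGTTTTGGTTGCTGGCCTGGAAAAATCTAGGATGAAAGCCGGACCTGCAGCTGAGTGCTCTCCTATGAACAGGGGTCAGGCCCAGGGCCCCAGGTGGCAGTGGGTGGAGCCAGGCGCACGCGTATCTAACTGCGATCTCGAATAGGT
Cacna1i: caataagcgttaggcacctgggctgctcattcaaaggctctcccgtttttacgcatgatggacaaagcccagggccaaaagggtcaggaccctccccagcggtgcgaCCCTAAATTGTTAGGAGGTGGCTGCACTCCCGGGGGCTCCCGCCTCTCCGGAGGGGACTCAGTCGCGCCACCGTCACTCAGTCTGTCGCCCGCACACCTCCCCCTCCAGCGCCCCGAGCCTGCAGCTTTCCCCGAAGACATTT
Trpm5: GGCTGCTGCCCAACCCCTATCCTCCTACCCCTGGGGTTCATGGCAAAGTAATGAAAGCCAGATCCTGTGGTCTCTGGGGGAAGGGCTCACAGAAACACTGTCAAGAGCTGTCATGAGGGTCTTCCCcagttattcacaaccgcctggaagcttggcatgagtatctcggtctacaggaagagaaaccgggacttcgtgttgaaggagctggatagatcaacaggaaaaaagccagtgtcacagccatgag
Cacna1d: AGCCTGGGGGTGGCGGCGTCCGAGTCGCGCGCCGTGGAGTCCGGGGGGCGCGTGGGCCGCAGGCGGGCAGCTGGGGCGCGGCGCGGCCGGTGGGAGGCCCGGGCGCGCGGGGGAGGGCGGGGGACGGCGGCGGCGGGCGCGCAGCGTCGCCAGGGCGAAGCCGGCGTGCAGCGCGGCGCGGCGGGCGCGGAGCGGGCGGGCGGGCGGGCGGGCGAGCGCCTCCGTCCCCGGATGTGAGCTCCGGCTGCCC

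All 250 bases before the Trpm6 start site lay under the lost region, and so did the last 143 before that of Cacna1i. In control libraries 1 to 3 the Trpm6 region was 659, 771 and 440 bp long and the Cacna1i region 200, 254 and 224 bp, and both were at 0 bp in every knockout library. The Cacna1i lengths lay at or near 200 bp, the width of the narrowest deposited peaks. The Trpm6 region also lay within 1 kb of a start site of Gm41814, and the span of Trpm6 begins before the start site shown. The second annotated start site of Cacna1d, at the outer end of its span, had no peak over its window in any library. Of 49 members, 41 had start sites in the RefSeq promoter table used, with 54 windows of 300 bases (250 before to 50 after the start). Of these windows 25 held a shared region, which is 46.3% (59.4% of 21263 windows of all protein-coding genes), 2 held a lost region (3.70%, and 0.183% of all), 0 a gained region (0.677% of all), 6 a region called in another set of libraries and 21 no region. Windows under shared regions had a median GC content of 66.0% in the channel genes and 62.0% in all genes, and windows without a region 51.3% and 47.0%. The channel genes held 30 shared regions within 1 kb of a start site, and 0 of them changed in width in limma (3 wider and 2 narrower at an unadjusted p under 0.05), with log2 fold changes from -0.21 to 0.76.

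Over whole territories, covered length was higher in the knockout for 6 members, all of them calcium channel genes: Cacna1e, Cacna1g and Cacna1h, which encode pores of the R type and the T type, and Cacng2, Cacng5 and Cacng8, which encode proteins known mainly as partners of glutamate receptors. It was lower for 4: Trpm5, Trpm6 and Trpm7, and the auxiliary subunit gene Cacnb3. The test was limma across all 17711 genes with a mean of at least 300 bp, on log2(scaled covered length + 300 bp), with Benjamini-Hochberg adjusted p under 0.05. It included 47 members, since Cacng1 had peaks only in knockout libraries 1 and 2 (666 and 465 bp unscaled) and Trpc5os was at 0 in every library. Higher were 6 of 47 (7.57% of all genes tested) and lower 4 of 47 (14.6% of all genes), and the median log2 fold change was 0.02 in the members and -0.09 in all genes. Without scaling 8 were higher (14.6% of all genes) and 1 lower (2.88% of all genes), and the median was 0.15 in members and 0.06 in all genes. Scaling by the median ratio over genes called the same 9 genes as no scaling (11.0% of all genes higher, 6.34% lower). Both added Cacna1i and Trpm4 as higher and dropped Trpm5, Trpm7 and Cacnb3. Scaled values of the groups did not overlap in 22 members, 11 higher (13.1% of all genes) and 11 lower (32.7% of all genes), and unscaled values in 20, 18 higher (28.5%) and 2 lower (9.68%).

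**Figure D1:**
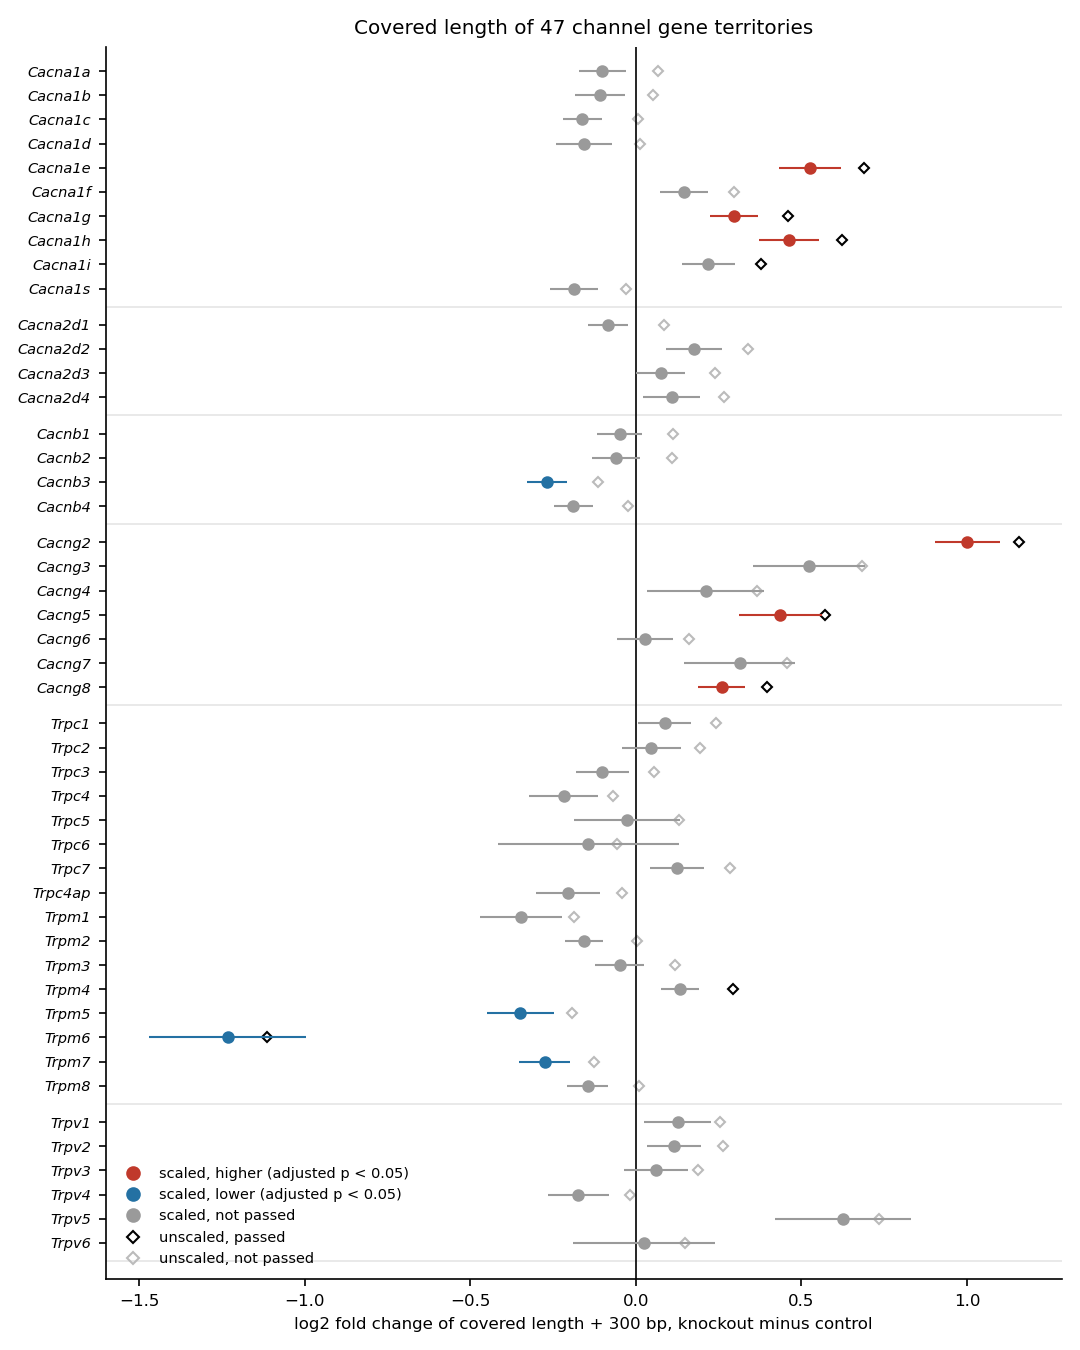
Log2 fold change of covered length + 300 bp, knockout minus control, for the 47 tested members grouped by subfamily. Filled circles with bars are scaled values with their SE (red higher, blue lower, grey not past an adjusted p of 0.05), and open diamonds are unscaled values (black where past the threshold). Cacng2 lies farthest to the right at 1.00 and Trpm6 farthest to the left at -1.23, and the diamonds lie to the right of their circles.

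Among the pore-forming genes, the R-type gene and 2 of the 3 T-type genes were higher over their territories, while regions of the L-type genes Cacna1d and Cacna1c changed in both directions. Cacna1e, the R-type pore gene (chr1:154390806-154884785), had a scaled covered length of 5213, 6659 and 6482 bp in control libraries 1 to 3 and 9179, 8932 and 8561 bp in knockout libraries 1 to 3. Every knockout value lay above every control value, and the log2 fold change was 0.53 ± 0.09 (SE, limma adjusted p = 0.010). The territory overlapped no other protein-coding gene. It held 24 regions, of which 6 were gained and 0 lost. A shared region was wider in the knockout at chr1:154500291-154501138, where peaks covered 309, 364 and 399 bp in control and 838, 707 and 846 bp in knockout libraries (log2 fold change 1.04, limma adjusted p = 0.011). The widest gained regions, chr1:154706151-154706698, chr1:154824874-154825307 and chr1:154676687-154677062, all lay within the gene span. Gained regions added a mean of 2075 bp and shared regions 676 bp to the unscaled difference of 3640.3 bp. The start-site region of Cacna1e was shared and did not pass the threshold.

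Cacna1h encodes a T-type pore, a channel that opens near the resting potential (chr17:25374285-25436334). Its scaled covered length was 3894, 3859.9 and 4554 bp in the control and 5734, 6341 and 5235 bp in the knockout, with no overlap (log2 fold change 0.46 ± 0.09, limma adjusted p = 0.014). Its 3 gained regions, chr17:25407413-25408135, chr17:25410762-25411442 and chr17:25406051-25406454, lay within the span. Knockout library 2 had the widest peak of the first, at 638 bp against 298 and 239 bp in knockout libraries 1 and 3. Cacna1g, the second T-type gene (chr11:94408391-94474400), measured 4852, 4736 and 5282 bp in the control and 5834, 6669.6 and 5975 bp in the knockout. The groups did not overlap, and the log2 fold change of 0.30 ± 0.07 was past the threshold (limma adjusted p = 0.027). Of its 4 gained regions only chr11:94429078-94429537 lay within the span. The regions at chr11:94475758-94476168, chr11:94483479-94483836 and chr11:94401351-94401672 were in the flanks, the second of them inside Spata20. A shared region at chr11:94445163-94445712 was wider in the knockout (log2 fold change 0.55, limma adjusted p = 0.048), and not past the threshold unscaled (adjusted p = 0.053).

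Cacna1i, the third T-type gene, lost its start-site region while its territory gained others. Covered length was 3403, 3419 and 3516 bp in the control and 4015, 4542 and 3668 bp in the knockout. The control libraries lay close together and below every knockout library, but the scaled difference did not pass (log2 fold change 0.22 ± 0.08, limma adjusted p = 0.082). The unscaled difference did pass, at 0.38 in log2 fold change (adjusted p of limma = 0.043). Gained regions lay 6218 bp before the start site, at chr15:80280644-80281020, and within the span, at chr15:80340400-80340736. A shared region, chr15:80289271-80289950, lay 2033 bp inside the gene and did not pass the threshold (limma adjusted p = 0.15).

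**Figure D2:**
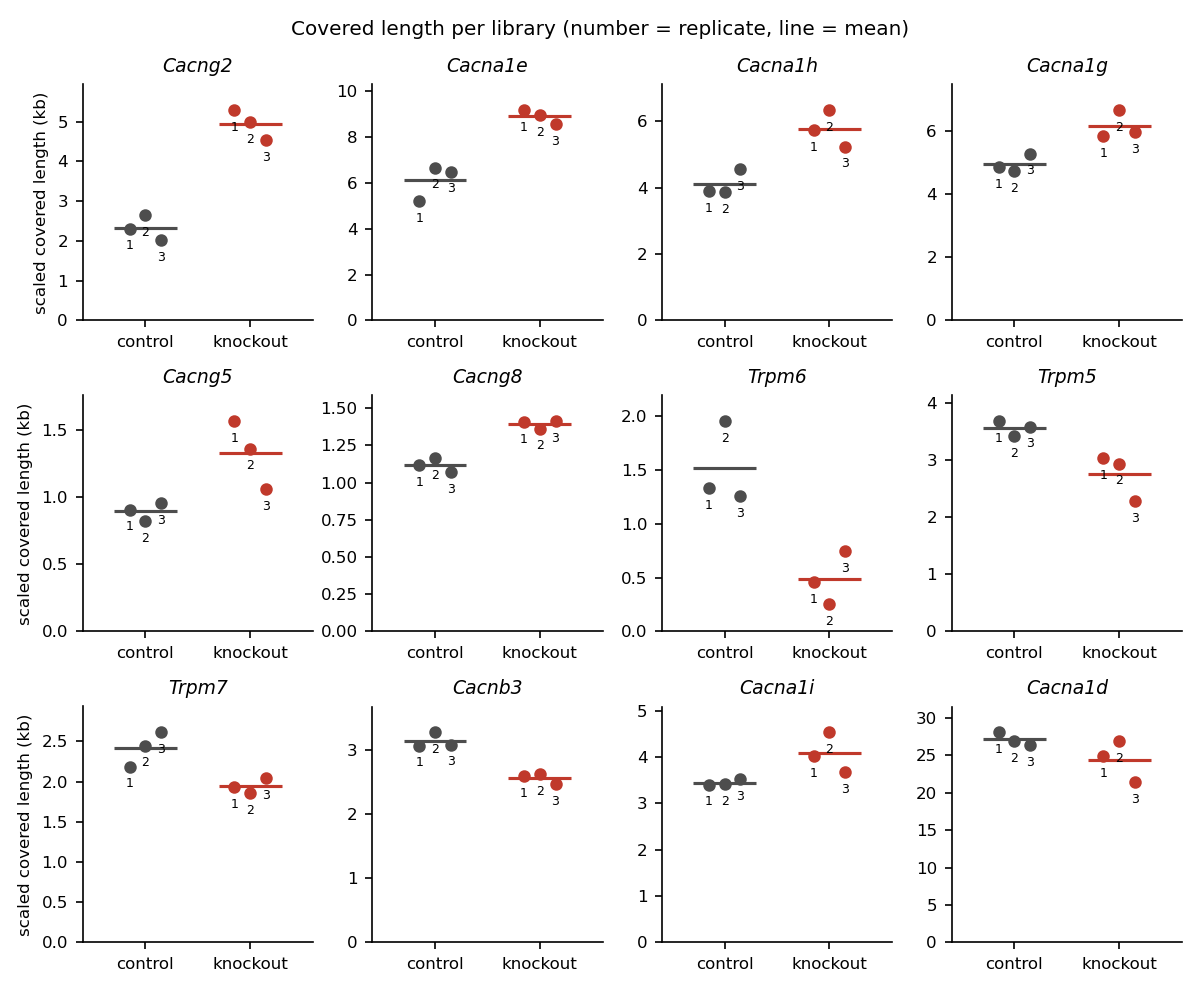
Scaled covered length in kb of 12 genes, with 1 point per library numbered by replicate and a line at the group mean. The first 6 genes are higher in every knockout library, the next 4 (Trpm6, Trpm5, Trpm7, Cacnb3) are lower in every knockout library, Cacna1i is higher in every knockout library without passing the test, and only Cacna1d of these 12 overlaps between groups.

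Cacna1d, an L-type pore gene of the β-cell (chr14:30039941-30491156, minus strand), did not pass over its whole territory, while single regions within it changed in both directions. Scaled values were 28138, 26908 and 26348 bp in the control and 24911, 26883 and 21439.6 bp in the knockout. Knockout library 2 lay within the control range and knockout libraries 1 and 3 below it, and the difference did not pass (log2 fold change -0.16 ± 0.08, limma adjusted p = 0.20). Unscaled, the values were 25610, 26944 and 24039 bp against 26366, 29166 and 22143 bp, at 0.01 in log2 fold change (adjusted p of limma = 0.95), so the sign depends on the scaling. The territory held 60 regions, 5 gained, 3 lost, 28 shared and 24 called in other sets of libraries, and it also overlapped Chdh and Dcp1a. On the unscaled means, gained regions added 1667 bp, lost regions changed by -850.7 bp, shared regions changed by -949.7 bp and other regions by 494 bp.

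Of the 28 shared regions of Cacna1d, 4 were narrower in the knockout, 1 was wider and 23 did not pass the threshold. The widest of these 5, chr14:30196108-30197452, measured 1189, 1166 and 1079 bp in the control and 761, 555 and 578 bp in the knockout (log2 fold change -0.84, limma adjusted p = 0.016). The region at chr14:30172927-30174038 measured 1107, 1072 and 989 bp against 588, 732 and 570 bp (log2 fold change -0.73, limma adjusted p = 0.012). In neither did the groups overlap, and they lay 156034 and 179448 bp from the nearest annotated start site. The narrower regions at chr14:30248246-30249279 and chr14:30259618-30260202 had log2 fold changes of -0.40 and -0.66 (limma adjusted p = 0.023 and 0.018). The wider one, chr14:30429493-30429992, lay between the outer and the inner start site (log2 fold change 0.77, limma adjusted p = 0.020). At the inner start site, whose upstream bases are printed above, the shared region chr14:30353376-30354340 covered 896, 910 and 795 bp in control and 871, 800 and 869 bp in knockout libraries. The groups overlapped there (log2 fold change -0.05, limma adjusted p = 0.69).

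**Figure D3:**
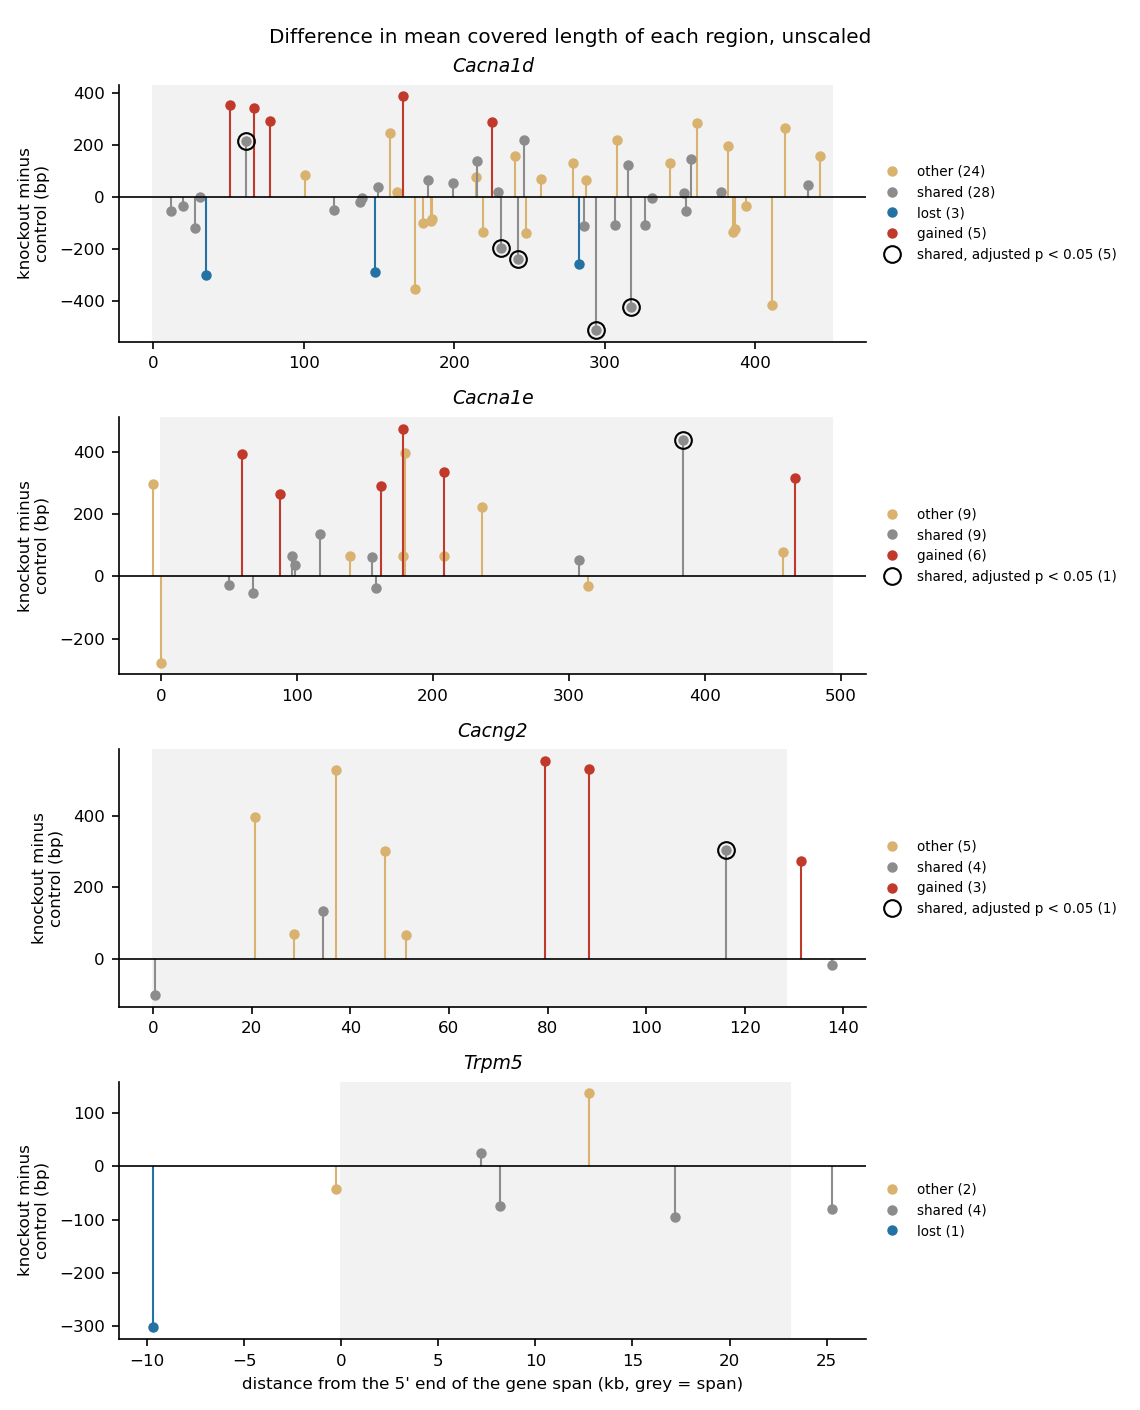
Difference in mean unscaled covered length, knockout minus control, of each region of Cacna1d, Cacna1e, Cacng2 and Trpm5 against its distance in kb from the 5′ end of the gene span. Colors give the class of region, black rings mark shared regions past an adjusted p of 0.05, and grey marks the span. Cacna1d shows 4 ringed regions below 0 and 1 above, Cacna1e and Cacng2 have 1 ringed region each, above 0, and Trpm5 has 1 lost region beyond its 5′ end.

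Cacna1c, the other L-type pore gene of mouse β-cells, had the longest covered length of all members, at a scaled mean of 31552 bp over the 6 libraries, followed by Cacnb2 (26177 bp) and Cacna1d (25771 bp). Covered length also rises with the length of the territory, so these are not levels of openness per base. Cacna1c did not pass (log2 fold change -0.16, limma adjusted p = 0.082), although all 3 scaled knockout values lay below the control values. Unscaled, the groups overlapped and the log2 fold change was 0.01 (limma adjusted p = 0.96), so its sign, too, depends on the scaling. It held 2 gained and 2 lost regions. A shared region at chr6:119179601-119180703, also overlapping Dcp1b, was wider (0.53, limma adjusted p = 0.0097), while chr6:118949911-118950858 and chr6:119079463-119080398 were narrower (-0.31 and -0.42, limma adjusted p = 0.028 and 0.041). The lost region chr6:118626306-118626750 lay within the span. Cacna1a, the P/Q-type pore gene of nerve terminals, also moved both ways, with 1 gained and 2 lost regions and no call over the whole territory (log2 fold change -0.10, limma adjusted p = 0.32; unscaled 0.07, adjusted p = 0.68). Its region at chr8:84350372-84351481 measured 1067, 1095 and 1077 bp in the control and 648, 634 and 667 bp in the knockout, with all values of a group close together (log2 fold change -0.71, limma adjusted p = 0.0044). The region chr8:84582404-84583273 was narrower too, chr8:84501478-84502642 was wider, and chr8:84620953-84621462 was gained. Cacna1b (N type), Cacna1f (retinal L type) and Cacna1s (skeletal muscle L type) had neither gained nor lost regions. The 10 pore genes together ranged from -0.19 to 0.53, with 3 higher (7.57% of all genes) and 0 lower (14.6% of all genes). At an unadjusted p under 0.05 in limma, 4 pore genes were higher and 2 lower.

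The Cacng genes, many of whose products guide AMPA-type glutamate receptors to synapses, held 11 gained and 0 lost of 49 regions (22.4% gained, against 10.3% gained and 2.62% lost of all regions). Of 7 tested, 3 were higher (7.57% of all genes) and 0 lower (14.6% of all genes; 0 also at an unadjusted p under 0.05), and their median log2 fold change was 0.31 scaled, 0.46 unscaled and 0.39 with median-ratio scaling. Cacng2, the stargazin gene (chr15:77991919-78120220), had the largest increase of any member. Scaled values were 2311, 2653 and 2023 bp in the control and 5301, 4986 and 4549 bp in the knockout. The lowest knockout value was well above the highest control value (log2 fold change 1.00 ± 0.10, limma adjusted p = 0.0019). No other protein-coding gene lay in the territory. Its gained regions chr15:78040512-78041079 (553, 555 and 550 bp) and chr15:78031502-78032049 (547, 540 and 506 bp) lay within the span, and chr15:77988546-77988934 beyond its 3′ end. The shared region chr15:78003762-78004449 measured 294, 276 and 295 bp in the control and 586, 613 and 580 bp in the knockout (log2 fold change 0.91, limma adjusted p = 0.0074). At the start site, which lies near that of A730060N03Rik, the region was shared and did not pass (log2 fold change -0.19, limma adjusted p = 0.63).

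Cacng5 and Cacng8 rose as well. Cacng5 measured 908, 821 and 958 bp in the control and 1569, 1362 and 1058 bp in the knockout, with knockout library 3 nearest to the controls (log2 fold change 0.44 ± 0.12, limma adjusted p = 0.042). Its gained region chr11:107900522-107900814 lay within the span. Cacng8 measured 1119.6, 1162 and 1068 bp against 1407, 1362 and 1415 bp (log2 fold change 0.26 ± 0.07, limma adjusted p = 0.038). On the unscaled means its gained region, chr7:3411135-3411716, added 558.7 bp, while the shared region beside it changed by -68.3 bp and the third region by -66.7 bp. The neighbor Cacng6 shares part of this territory, including that shared region. Cacng3 gained chr7:122687918-122688544, chr7:122693767-122694345 and chr7:122700466-122700871, all within its span, and did not pass (log2 fold change 0.52 ± 0.17, limma adjusted p = 0.059). Cacng7 gained chr7:3376722-3377219 and chr7:3336434-3336718, and Cacng6 gained chr7:3436173-3436424.

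Of the other auxiliary subunit genes, Cacnb3 alone passed over its territory. None of the 4 Cacna2d genes, whose products bring channels to the membrane, passed in limma (0 also at an unadjusted p under 0.05), with log2 fold changes from -0.08 to 0.18. Without scaling, Cacna2d2 (0.34) and Cacna2d4 (0.27) were higher at an unadjusted p under 0.05 but did not pass (limma adjusted p = 0.058 and 0.070). Of 102 regions 10 were gained (9.80%) and 2 lost (1.96%), near the shares of all regions. Cacna2d1 held 4 gained regions, the widest chr5:16091947-16092383 and chr5:16158585-16158969, and both lost ones, chr5:15945391-15945991 and chr5:16095441-16095939. Cacna2d2 gained chr9:107424712-107425105, and its shared regions chr9:107416993-107417736 and chr9:107533637-107535203 were wider and narrower, respectively (0.82 and -0.47, limma adjusted p = 0.043 and 0.020), the second inside Tmem115. Cacna2d3 gained chr14:29654614-29654998 and chr14:29410970-29411294. Cacna2d4 gained chr6:119313518-119313927, chr6:119329218-119329503 and chr6:119241826-119242101, and its shared region chr6:119318202-119319159, which overlaps Lrtm2, was narrower (-0.33, limma adjusted p = 0.023).

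Of the 4 Cacnb genes, which encode cytoplasmic subunits that bind the pore, Cacnb3 passed. It measured 3066.5, 3281 and 3081 bp in the control and 2589.7, 2622 and 2467 bp in the knockout, with no overlap (log2 fold change -0.27 ± 0.06, limma adjusted p = 0.021), but unscaled the groups overlapped (log2 fold change -0.11, limma adjusted p = 0.36). It had neither a gained nor a lost region. The region chr15:98644912-98645935, which begins 376 bp beyond the gene end and overlaps Ddx23, measured 1010, 981 and 959 bp against 683, 637 and 571 bp (-0.62, limma adjusted p = 0.0092). Cacnb2 gained chr2:14639280-14639656 and chr2:14861570-14861920, lost chr2:14783481-14783831 and had a wider shared region at chr2:14626360-14626966 (0.78, limma adjusted p = 0.045). Cacnb4 gained chr2:52435874-52436315 and chr2:52438009-52438318. Its lost region chr2:52423420-52423857 and its wider shared region chr2:52421185-52421644 (0.47, limma adjusted p = 0.033) lay in the flank inside Arl5a. Cacnb1 gained chr11:98005026-98005497.

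In the Trpm family 3 of 8 genes were lower (14.6% of all genes) and 0 higher (7.57% of all genes; 1, Trpm4, at an unadjusted p under 0.05), whereas without scaling and with median-ratio scaling 1 was lower (Trpm6) and 1 higher (Trpm4). The family had a median log2 fold change of -0.22 scaled, -0.06 unscaled and -0.13 with median-ratio scaling. Trpm6 (chr19:18730177-18892521) measured 1333, 1957 and 1258 bp in the control and 460.1, 255 and 748 bp in the knockout. No knockout library reached the lowest control library (log2 fold change -1.23 ± 0.24, limma adjusted p = 0.014). The lost start-site region shown above accounted for -623.3 bp of the unscaled difference of -928 bp. The only shared region of the gene, chr19:18834864-18835352, did not pass (-0.18, limma adjusted p = 0.58). Unscaled, Trpm6 also passed, as the only lower member (-1.12, limma adjusted p = 0.036).

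Trpm5, the calcium-activated cation channel known from taste cells and β-cells, lies at chr7:143071529-143094642 on the minus strand. It measured 3694, 3426 and 3593 bp in the control and 3038, 2943 and 2293 bp in the knockout. All knockout values lay below all control values, and knockout library 3 was lowest (log2 fold change -0.35 ± 0.10, limma adjusted p = 0.043). Unscaled values, at 3362, 3431 and 3278 bp against 3215, 3193 and 2368 bp, were also apart, but the difference did not pass (-0.19 ± 0.11, limma adjusted p = 0.29). Its territory also holds Cd81 and Tssc4, and the call rests on the width of the flank: the log2 fold change was -0.16 over the span alone (limma adjusted p = 0.33) and -0.04 with flanks of 50 kb (adjusted p = 0.77). The lost region chr7:143104146-143104500 lay 9504 bp before the start site and covered 257, 355 and 294 bp in the control. The region just before the start site, chr7:143094767-143095057, covered 213, 267 and 219 bp in the control and 291, 281 and 0 bp in the knockout. On these unscaled lengths it was wider in knockout libraries 1 and 2 than in any control library. It was not called in knockout library 3. The 4 shared regions did not pass (log2 fold changes -0.25 to 0.06), and they included chr7:143068721-143069967 at the start site of Tssc4.

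Trpm7, the ubiquitous relative of Trpm6, measured 2188, 2448 and 2619.55 bp in the control and 1931, 1853 and 2042 bp in the knockout (log2 fold change -0.28 ± 0.08, limma adjusted p = 0.040). Scaled values did not overlap, while unscaled values did (-0.13, limma adjusted p = 0.32). Its start-site region chr2:126875486-126876724 covered 1204, 1193 and 1132 bp against 1208, 1235 and 1195 bp and did not pass (0.02, limma adjusted p = 0.70). Regions called in some libraries only accounted for -762 bp of the unscaled difference, whereas Trpm7 gained chr2:126854953-126855298 and its flank held a wider shared region at the start site of Usp50, chr2:126782320-126782830 (0.70, limma adjusted p = 0.014). Trpm4, which like Trpm5 conducts monovalent cations when calcium rises, passed only without scaling or with median-ratio scaling, as higher, and with the 50000 strongest peaks of each library, as lower. It gained chr7:45315767-45316154, chr7:45340673-45341022 and chr7:45297617-45297942, and its shared region chr7:45299783-45300651 was narrower (-0.55, limma adjusted p = 0.013). Its covered length was 5080.4, 4988 and 5349.8 bp in the control and 5730.3, 5747 and 5503 bp in the knockout (log2 fold change 0.13, limma adjusted p = 0.12; unscaled 0.29, adjusted p = 0.020).

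**Figure D4:**
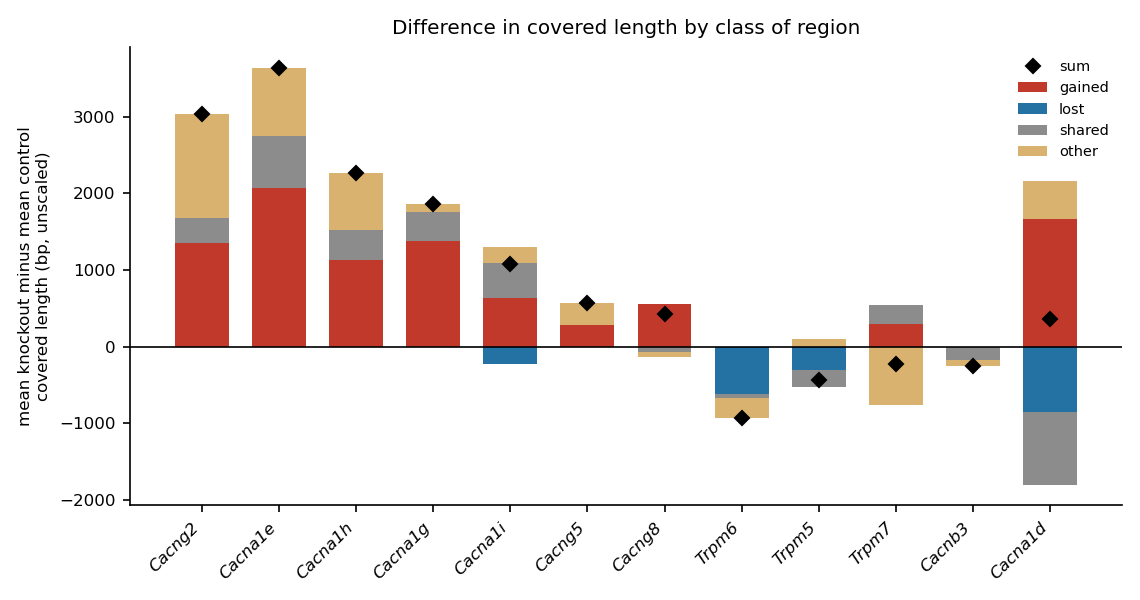
Mean knockout minus mean control covered length in bp, unscaled, split by class of region for 12 genes, with a diamond at the sum. Gained regions make up much of the bars of Cacng2, Cacna1e, Cacna1h and Cacna1g, the lost region most of the bar of Trpm6, and in Cacna1d positive and negative parts nearly cancel to a sum of 361 bp.

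The remaining Trp genes did not pass over their territories. Trpm3, a heat- and steroid-sensitive channel expressed in β-cells, held 6 gained regions, among them chr19:22220030-22220508 and chr19:22330677-22331143, and 1 lost region. Its shared region chr19:22381967-22382498 was wider and chr19:22940298-22941013 narrower (0.87 and -0.59, limma adjusted p = 0.014 and 0.046). Over the territory its log2 fold change was -0.05 scaled and 0.12 unscaled (limma adjusted p = 0.65 and 0.45). Trpm1 gained chr7:64236430-64237053 and lost chr7:64179154-64179645, and Trpm2, gated by ADP-ribose, gained chr10:77972203-77972546 and lost chr10:77975670-77975959. Trpm8, the menthol receptor, had neither kind. None of the 7 Trpc genes passed in limma (0 also at an unadjusted p under 0.05, and 2 higher without scaling), with log2 fold changes from -0.22 to 0.12. Trpc7 gained chr13:56789973-56790359, chr13:56862732-56863087 and chr13:56828673-56829011 and lost chr13:56772675-56772967. Trpc1 gained chr9:95700331-95700761 and chr9:95708981-95709286, and the flank of Trpc2, inside Xntrpc, held a wider shared region at chr7:102076519-102077092 (0.80, limma adjusted p = 0.012). Trpc4ap gained chr2:155698610-155698989 and lost chr2:155675117-155675566.

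The 6 vanilloid genes held 1 gained and 1 lost region. None of 6 passed in limma (1 higher, Trpv5, at an unadjusted p under 0.05, and 3 without scaling), with log2 fold changes from -0.17 to 0.63. Trpv5, a calcium-selective epithelial channel, measured 534, 394 and 336 bp in the control and 555, 792 and 1149 bp in the knockout. The groups did not overlap, but the control value of 534 bp and the knockout value of 555 bp lay close together, and the difference did not pass (limma adjusted p = 0.062). It gained chr6:41689980-41690263 in the flank inside Kel, and its neighbor Trpv6 lost chr6:41610495-41610969 in the flank inside Ephb6.

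In all, the channel gene territories held 722 regions, of which 68 were gained (9.42%, and 10.3% of all regions), 20 lost (2.77%, and 2.62% of all) and 347 shared (48.1%, and 48.0% of all). At least 1 gained region lay in 29 of 49 territories (59.2%, and 33.0% of all genes) and at least 1 lost region in 15 (30.6%, and 13.1% of all genes). The channel genes are long, with a median span of 67.0 kb against 17.2 kb in all genes and a median of 8 against 4 regions per territory, and genes matched for length were not compared. The shares of regions were near those of all regions. Both kinds were present in 12 members and neither in 17. No gained region lay within 1 kb of a start site, while 55 of 68 lay within a gene span and 13 in a flank. Of the lost regions 2 lay at a start site, 12 within a span and 6 in a flank, and of the shared regions 30, 270 and 47. Gained peaks were narrow, with a median of 324 bp, and the authors' −log10 q placed them at median percentiles of 29.9 to 36.7 within their lists, where shared regions stood at 61.8 to 64.4 in the same 3 lists. Lost peaks, with a median of 289.5 bp, stood at median percentiles of 17.96 to 23.95 within the control lists. Shared regions stood at 58.02 to 60.69 there. Of the 347 shared regions 12 were wider (3.46%, and 4.28% of all shared regions) and 13 narrower (3.75%, and 3.00% of all). Without scaling 11 of these 12 and 10 of these 13 passed, the exceptions being the wider region of Cacna1g and the narrower regions chr6:118949911-118950858 of Cacna1c, chr8:84582404-84583273 of Cacna1a and chr19:22940298-22941013 of Trpm3. Another protein-coding gene overlapped 33 of 49 territories, and 4 gained and 3 lost regions overlapped the span of one.

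Of 61 other calcium handling genes, 60 were tested, 9 were higher (7.57% of all genes) and 8 lower (14.6% of all genes). Genes for proteins that bind voltage-gated channels had the most calls, 4 higher and 2 lower of 7 tested: Stac (0.54), Gem (0.32), Rem2 (0.29) and Stac2 (0.22) were higher, and Calb1 (-0.53), a calcium buffer, and Stac3 (-0.42) were lower in log2 fold change. The kinase gene Camk2a had the largest difference, with 2568, 2207 and 2011 bp in the control and 4942, 4921 and 5002 bp in the knockout (log2 fold change 1.04 ± 0.08, limma adjusted p = 0.0011). Of the other sensors and effectors reported, Nfatc4 (0.21) passed. The release channel gene Ryr1 was higher (0.53) and Itpr1 lower (-0.24). Of pumps, Atp2b3 (0.36) and Atp2c2 (0.29) were higher and Atp2a3 (-0.30) and Atp2c1 (-0.43) lower. Lower too were the mitochondrial gatekeeper gene Micu2 (-0.36) and, among other TRP families, Trpa1 (-0.60) and Pkd2 (-0.33). None of the 6 genes of store-operated entry passed in limma (1 lower at an unadjusted p under 0.05). With each library left out in turn, Camk2a, Ryr1, Trpa1, Stac3 and Calb1 passed in all 6 refits, and the other 12 of the 17 in 3 or fewer. Among these, Itpr1, Nfatc4 and Stac2 passed in 0, Stac, Gem and Atp2c2 in 1 and Rem2 in 2. Unscaled, 13 of the 60 were higher (14.6% of all genes unscaled) and 3, Trpa1, Stac3 and Calb1, lower (2.88% of all genes unscaled).

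Of the 10 members past the threshold, Cacng2 passed under all 18 alternative settings and Trpm6 under all 16 that tested it. Trpm6 fell below the minimum length with the 50000 strongest peaks per library and with a minimum mean of 1000 bp. Its call could therefore not be checked in strong peaks alone. Cacna1e missed only with the 50000 strongest peaks per library (limma adjusted p = 0.12) and Cacna1h only with peaks of a −log10 q of at least 5 (adjusted p = 0.051). The other 6 lost their call in some refits. Over the span alone Cacna1g (0.28, limma adjusted p = 0.070) and Cacnb3 (-0.08, adjusted p = 0.44) did not pass, and with flanks of 50 kb neither did Cacnb3 (-0.10, adjusted p = 0.24), Cacng8 (0.28, adjusted p = 0.096) and Cacng5 (-0.24, adjusted p = 0.40). With each library left out in turn, Cacng8 passed only without control library 2, Cacng5 only without knockout library 3, Cacna1g without control library 3 or knockout library 3, Trpm5 only without knockout library 1, Trpm7 only without control library 1, and Cacnb3 without control library 1 or 2 or knockout library 2. In these refits the limma adjusted p ran from 0.040 to 0.11 for Cacng8, 0.016 to 0.12 for Cacng5, 0.040 to 0.075 for Cacna1g, 0.0498 to 0.12 for Trpm5, 0.037 to 0.13 for Trpm7 and 0.040 to 0.061 for Cacnb3, with the sign unchanged.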

How the data were processed

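ATAC-seq peak lists of 3 control and 3 Chd4 knockout libraries were used, grouped by the genotype label. The authors deposited 1 narrow-peak list per library with a score, a fold enrichment at the summit (a ratio), a −log10 p, a −log10 q and a summit position per peak. As the authors' own statistics, they served only for ranking or filtering peaks within a list. Peak names in the deposited files point to MACS2 on shifted cutting sites, per the file headers and names, and mm10 is the build that the submitters' processing notes name. The aligner, read filters and settings are not stated in the sources at hand. Every deposited peak was at least 200 bp wide with q under 0.05. The lists hold no read counts, so no counting interval could be given, and errors are SEs of the fit.

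Covered length per gene (span plus 10 kb each side) was scaled to the mean total, 300 bp were added, and limma 3.58.1 was run on log2 values of the 17711 genes whose mean reached 300 bp (intensity trend, two-sided, Benjamini-Hochberg over all genes) in R 4.3.3. Shared regions (75312) were tested likewise, with 50 bp added. Fold changes understate those of genes with few peaks. The code was tested on simulated data. Alternatives changed the scaling, added constant, filter, territory, peaks, variance model, replicate block, overlap and libraries. Members were chosen by symbol, and members and lists of other genes were chosen with earlier results of these data known. A listed gene is not reported here. Named were Trpm5, Cacna1d, members past the threshold, with a gained or lost region or among the 3 longest in covered length, listed genes past the threshold, and up to 4 of the widest changed regions per gene. Regions of Cacna1d, start-site regions and other members beyond this rule were chosen after their values were seen. Sequences are from RefSeq (GRCm38.p6). Exons and introns were not told apart.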

Additional observations from a re-analysis of the deposited data

How the results depend on the processing

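Counts depended on scaling and on which peaks were used. Without scaling, 2586 genes were higher and 510 lower among all tested, against 1340 and 2577 with scaling, and median-ratio scaling gave 1122 lower. The lower members fell from 4 to 1 under both, and lower other calcium handling genes to 3. With the 50000 strongest peaks of each library, 1165 genes were higher and 1543 lower of 16488 tested, and 4 other calcium handling genes were higher. Of the members 4 were higher and 3 lower, and only 2 of the 10 members called with the deposited lists passed, Cacna1h and Cacng2. Newly past the threshold were Cacna1s, Cacna2d1, Cacnb4, Trpm4 and Trpv4. Cacna1g, Cacng8 and Trpm5 kept their sign without passing (limma adjusted p = 0.63, 0.93 and 0.19). Of 303 member regions 27 were gained (8.91%), 17 lost (5.61%) and 141 shared. Of all regions 8.49% were then gained and 6.70% lost, against 10.3% and 2.62% with the deposited lists. There 0 member regions were wider and 4 narrower in limma (12 and 19 at an unadjusted p under 0.05), of 682 wider and 634 narrower in all. With the gene span alone, 2 members and 4 other calcium handling genes were lower, as were 1729 of all 15637 genes tested. Leaving out 1 library in turn gave 676 to 1159 higher and 840 to 2229 lower genes, 3 to 6 higher (3 without control library 1 or knockout library 2) and 2 to 3 lower members (2 without control library 3 or any 1 knockout library), 2 to 5 higher and 4 to 7 lower other calcium handling genes, 70 to 91 gained, 23 to 31 lost (31 without control library 1 or knockout library 2) and 349 to 359 shared member regions. It also gave 5 to 16 wider and 6 to 12 narrower member regions, of 913 to 2934 and 770 to 1585 in all.

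Whether the replicate numbers pair the samples is not known. Deviations of same-numbered libraries correlated at 0.13, 0.093 and -0.027. Libraries 1 and 2 of each group, but not library 3, correlated best with their own number. Correlations this weak cannot decide whether the libraries are paired. With a replicate block 3 members were higher (Cacna1e, Cacna1h and Cacng2) and 2 lower (Cacnb3 and Trpm6). Cacna1g, Cacng5, Cacng8, Trpm5 and Trpm7 did not pass under the block (limma adjusted p from 0.0501 to 0.072). Of other calcium handling genes 4 were higher and 7 lower. Of all 17711 genes tested, 1164 were then higher and 1937 lower. Under the block 0 shared regions passed in either direction in limma (60 wider and 43 narrower member regions, and 9221 and 8313 of all, at an unadjusted p under 0.05).

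Signs of log2 fold changes reversed with the 50000 strongest peaks for Trpm7 (0.30), Cacng5 (-0.45), Cacnb3 (0.063), Trpm4 (-0.33), Atp2a3 (0.38), Nfatc4 (-0.16) and Stac2 (-0.28), of which Trpm4 and Stac2 passed as lower (limma adjusted p = 0.022 and 0.036). They reversed with 50 kb flanks for Cacng5 (-0.24), with the span alone for Rem2 (-0.0024), and without scaling for Cacna1d (0.013). Other members whose sign changed without scaling included Cacna1a, Cacna1c, Cacna2d1, Cacnb1, Cacnb2 and Trpm3. The cause was not tested. Of the 37 tested members that did not pass, 11 passed under some alternative and 25 changed sign under some, 3 of them while passing. The unknown read depth limits every comparison of peaks called or not called.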

Other observations

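Short sequence motifs were counted in the 300-base start-site windows on both strands, as a description. CAGCTG, an E-box, was found in 18 of 54 windows of the channel genes (33.3%, and 15.6% of 21263 windows of all protein-coding genes), among them those of Trpm6 and of the inner start site of Cacna1d printed above. CAGATG, another E-box, was found in 8 (14.8%, and 14.6% of all), GGGCGG in 20 (37.0%, and 46.2% of all), CCAAT in 14 (25.9%, and 38.2% of all), TGANTCA in 2 (3.70%, and 6.99% of all), TAATTA in 2 (3.70%, and 4.53% of all) and TGACGTCA in 0 (2.23% of all). None of these motifs contains another, windows of 1 gene can overlap, and a match shows only that the letters are present.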
